A study of Mus musculus with 73 samples.

Results

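The 70kb [Xite-Jpx] allele of the mouse X-inactivation centre was profiled by RNA-seq in 4 libraries, and these were set against the 2 wild-type libraries that their titles name as the matching ones. These 6 libraries were chosen by their labels from the 73 samples of the series, 12 of which are RNA libraries. The allele was carried by 2 clones, clone 1 (labelled 18C6) and clone 2 (labelled 20E7), each with 2 replicates, and wild type (WT) was the unedited line with 2 replicates. All 6 libraries came from E14Tg2a, a male embryonic stem (ES) cell line of strain 129/Ola with the karyotype XY, which therefore holds a single X chromosome. The cells were kept undifferentiated on gelatin, without feeder cells, in serum with leukemia inhibitory factor. Edited clones were made with CRISPR or TALEN nucleases, and the labels do not say whether the 70kb allele is an inversion or a deletion. Replicates 1 and 2 carry the codes B13 and B14 in every line, with no explanation of the code in the labels. Each edited clone and the WT line is a separate cell population, but nothing in the labels says that the 2 replicates of a line came from separate cultures, so the p-values below measure the spread between these libraries only.

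The X-inactivation centre holds Xist, a noncoding RNA that coats an X chromosome and silences it, and Tsix, which is read on the opposite strand across Xist and represses it. In undifferentiated ES cells Tsix is active and Xist is almost silent, and on differentiation of female cells Xist is switched on along the X chromosome that becomes inactive. The 2 genes lie in adjoining chromatin domains: that of Tsix holds Xite, an enhancer of Tsix, together with Tsx, Chic1, Cdx4 and Nap1l2, and that of Xist holds Jpx, Ftx and Rlim. The allele is named for an interval whose ends lie in the 2 domains, and the comparison asks how the genes of both domains and the rest of the genome are expressed when it is edited. Xite and Jpx were not analysed here.

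The depth was 34514493 to 41033358 counts per library, and 16047 of the 37310 genes in the table had enough counts to be tested. Levels are given in CPM, counts scaled to a common library size after TMM scaling (edgeR's correction for differences in RNA composition), and differences as log2 fold changes with their standard error (SE). Levels of different genes are not compared, since CPM does not correct for gene length. The ES cell markers were high in every library: Pou5f1 had 785 to 1365 CPM in 70kb libraries and 1104 to 1211 CPM in WT libraries. Nanog had 309 to 409 CPM in 70kb libraries and 327 to 351 CPM in WT libraries. Sox2 had 488 to 616 CPM in 70kb libraries and 535 to 569 CPM in WT libraries, and Zfp42 had 392 to 525 CPM in 70kb libraries and 440 to 461 CPM in WT libraries. Clone 2 replicate 2 stood apart from the other 5 libraries, with the lowest Pou5f1 level and a TMM factor of 1.071 against 0.973 to 1.001 elsewhere. Its rank correlations with them were 0.976 to 0.989, which overlapped the 0.981 to 0.995 of the pairs without it.

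The Xist, Ftx and Tsx promoters are shown because these 3 genes had the smallest p-values within the X-inactivation centre. Each run covers 250 bases before to 50 bases after the RefSeq start on build GRCm38.p6, whereas the counts were made on mm9, and is written 5′ to 3′ on the strand of the gene. The Xist promoter is chrX:103483184-103483483 on the minus strand, the Ftx promoter is chrX:103623705-103624004 on the minus strand, and the Tsx promoter is chrX:103414217-103414516 on the plus strand. Capitals mark matches on either strand. The letters TATAAA stand for the TATA box and were searched first. The letters GGGCGG stand for the GC box that binds Sp1. The letters GCCATNTT stand for the core of the YY1 motif, where N is any base. The letters CCAAT stand for the CCAAT box.
Xist: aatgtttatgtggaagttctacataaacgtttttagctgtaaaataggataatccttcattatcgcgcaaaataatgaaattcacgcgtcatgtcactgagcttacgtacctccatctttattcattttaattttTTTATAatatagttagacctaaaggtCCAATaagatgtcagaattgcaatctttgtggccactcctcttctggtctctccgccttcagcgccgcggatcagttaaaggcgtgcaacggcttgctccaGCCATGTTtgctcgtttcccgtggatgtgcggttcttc
Ftx: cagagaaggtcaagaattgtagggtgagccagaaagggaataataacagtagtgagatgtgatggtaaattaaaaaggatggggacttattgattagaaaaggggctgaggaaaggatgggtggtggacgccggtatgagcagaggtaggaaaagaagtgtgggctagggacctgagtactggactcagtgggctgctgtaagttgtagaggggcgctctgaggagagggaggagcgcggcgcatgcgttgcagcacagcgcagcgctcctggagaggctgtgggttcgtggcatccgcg
Tsx: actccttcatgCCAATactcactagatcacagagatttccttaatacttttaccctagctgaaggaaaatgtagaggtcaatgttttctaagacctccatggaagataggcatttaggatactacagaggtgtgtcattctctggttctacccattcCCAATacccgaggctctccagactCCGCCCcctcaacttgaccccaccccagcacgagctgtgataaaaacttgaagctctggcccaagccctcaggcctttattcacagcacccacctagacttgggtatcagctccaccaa

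The Xist window held 1 TATA box match, 1 CCAAT match and 1 YY1 core match. The Ftx window held none of the 4, and the Tsx window held 1 GC box match and 2 CCAAT matches. Among 32817 mouse promoter windows of 300 bases, 13.6% held the TATA box, 35.6% the GC box, 6.04% the YY1 core and 37.4% the CCAAT box. The Xist window had 15 CpG dinucleotides, the Ftx window 12 and the Tsx window 3, against a median of 7 over all windows. A letter match is not a measured binding site.

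No gene passed the threshold for a difference between the 70kb allele and WT. In the edgeR quasi-likelihood test with Benjamini-Hochberg adjustment, 0 of 16047 genes (0%) had an adjusted p under 0.05. At an unadjusted p under 0.05 there were 188 genes (1.17%), of which 71 (0.442%) were higher and 117 (0.729%) lower in 70kb libraries. DESeq2 called 4 genes: Xist, Gm9785 and an identifier without a symbol were higher, and Gm12690 was lower. The number at an unadjusted p under 0.05 depended on single libraries: it was 94 without clone 1 replicate 1, 371 without clone 1 replicate 2, 644 without clone 2 replicate 2, 70 without WT replicate 1 and 37 without WT replicate 2, with 0 genes past the threshold in each case. In 852 genes (5.31%) all 4 70kb libraries lay beyond both WT libraries, above them in 376 (2.34%) and below them in 476 (2.97%). The median log2 fold change over all tested genes was 0.01, and 52.3% of genes lay above 0.

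Within the X-inactivation centre, Xist and Ftx were higher in all 4 70kb libraries than in both WT libraries, and Tsx, Chic1 and Nap1l2 were lower in all 4. Xist averaged 6.05 ± 1.89 CPM in 70kb libraries (SD, n = 4) and 1.55 ± 1.01 CPM in WT libraries (SD, n = 2), a 4.16-fold difference. Tsx was 3.88-fold lower and Ftx 1.66-fold higher. Tsix, the gene that opposes Xist, was 1.251-fold lower with overlapping groups. None of these passed the threshold in the edgeR fit of all 6 libraries, where the adjusted p was 1 for each. With clone 1 alone against WT, a fit of 4 libraries with 1 residual degree of freedom, edgeR called 7 of the 8 genes of the centre described here, all but Cdx4, in a background of 8.64% of all tested genes. With clone 2 alone it called Xist and Ftx, in a background of 1.5%.

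Xist (ENSMUSG00000086503.1) had 8.85 and 5.40 CPM in clone 1 libraries, 4.68 and 5.28 CPM in clone 2 libraries, against 2.27 and 0.841 CPM in WT. The highest WT library lay below the lowest 70kb library, and clone 1 replicate 1 was the highest of the 6. The log2 fold change was 2.06 (SE 0.39, unadjusted p = 0.00149). Fitted per line it was 2.23 in clone 1 and 1.79 in clone 2, and the 2 clones were not called different (log2 difference 0.44, SE 0.34, edgeR adjusted p = 0.531). DESeq2 placed the same difference past the threshold (log2 fold change 2.06, adjusted p = 0.000995), as did edgeR with clone 1 alone (2.22, adjusted p = 1.45e-06) and with clone 2 alone (1.81, adjusted p = 0.000704). Over 19 alternative settings the log2 fold change of Xist ran between 1.57 and 2.94 and its adjusted p between 1.45e-06 and 1. Because the 2 genes share sequence on opposite strands and the strand rule of the counting is unknown, reads of Tsix could have been counted for Xist and the reverse.

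Tsix (ENSMUSG00000085715.1) had 13.2 and 8.40 CPM in clone 1 libraries, 15.4 and 12.8 CPM in clone 2 libraries, against 19.9 and 11.9 CPM in WT. The groups overlapped, because WT replicate 2 was below 3 of the 4 70kb libraries, and in every line the B13 library was above the B14 library. The log2 fold change was -0.32 (SE 0.20, unadjusted p = 0.159). In the fit with a mean per line it was -0.55 in clone 1 and -0.13 in clone 2. With clone 1 alone against WT it passed the threshold in edgeR (log2 fold change -0.55, adjusted p = 0.00125), a fit that has 1 residual degree of freedom, and over 19 alternatives its adjusted p ran between 0.00125 and 1.

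**Figure D1:**
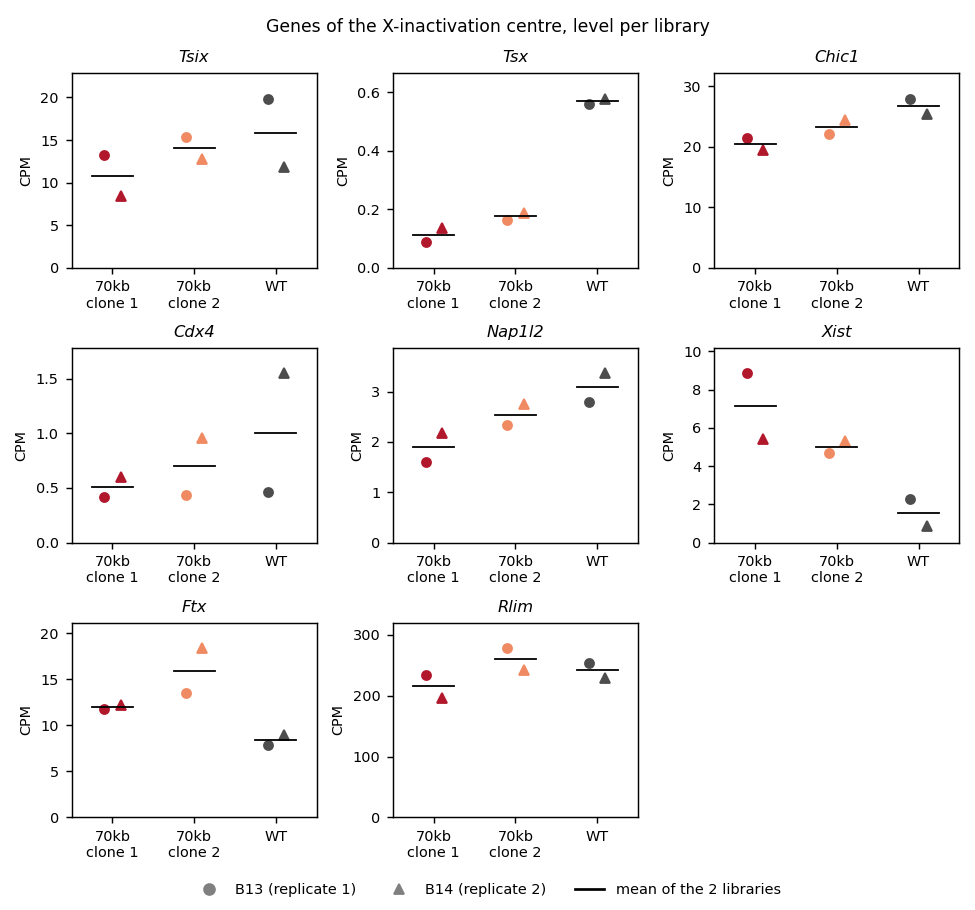
CPM of 8 genes of the X-inactivation centre in each library, by line (70kb clone 1, 70kb clone 2, WT), with circles for B13, triangles for B14 and a bar at the mean of the 2 libraries. Xist and Ftx lie above, and Tsx, Chic1 and Nap1l2 below, the WT libraries in all 4 70kb libraries.

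The other genes on the Tsix side had negative log2 fold changes as well, so that 5 of 5 tested genes of that side lay below 0, with a median of -0.48. Over all tested genes 52.3% lay above 0. By line the median of the 5 genes was -0.71 in clone 1 and -0.28 in clone 2. Genes of a list can vary together, so these are not 5 independent measurements. Tsx (ENSMUSG00000031329.4), a gene known for expression in the testis, had 0.0893 and 0.136 CPM in clone 1 libraries, 0.164 and 0.187 CPM in clone 2 libraries, against 0.560 and 0.578 CPM in WT. All 70kb libraries were below both WT libraries (log2 fold change -1.96, SE 0.41, unadjusted p = 0.00232), at a mean of 11 counts per library, so that counting error weighs on the size of the fold. It was called with clone 1 alone (log2 fold change -2.30, edgeR adjusted p = 0.00668) and not with clone 2 alone (-1.67, adjusted p = 0.235). Chic1, which encodes a cysteine-rich membrane protein, had 21.5 and 19.5 CPM in clone 1 libraries, 22.04 and 24.4 CPM in clone 2 libraries, against 28.0 and 25.4 CPM in WT. The 2 groups did not overlap, with a log2 fold change of -0.29 (SE 0.13, unadjusted p = 0.0642). It was called with clone 1 alone (-0.39, edgeR adjusted p = 0.0032) and not with clone 2 alone (-0.19, adjusted p = 0.999).

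Nap1l2, a nucleosome assembly factor of neurons, had 1.61 and 2.18 CPM in clone 1 libraries, 2.33 and 2.75 CPM in clone 2 libraries, against 2.80 and 3.36 CPM in WT. The highest 70kb library was just below the lowest WT library (log2 fold change -0.48, SE 0.25, unadjusted p = 0.102). It too was called with clone 1 alone (-0.71, edgeR adjusted p = 0.0326) and not with clone 2 alone (-0.27, adjusted p = 0.999). Cdx4, a caudal homeobox transcription factor, had 0.417 and 0.600 CPM in clone 1 libraries, 0.438 and 0.961 CPM in clone 2 libraries, against 0.463 and 1.55 CPM in WT. Its groups overlapped, and the B14 library was the higher of the pair in each line (log2 fold change -0.61, SE 0.36, unadjusted p = 0.141).

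On the Xist side 2 of 3 tested genes described here lay above 0 (median log2 fold change 0.73). Ftx (ENSMUSG00000086370.2), a noncoding gene that is a positive regulator of Xist, had 11.7 and 12.2 CPM in clone 1 libraries, 13.5 and 18.4 CPM in clone 2 libraries, against 7.85 and 8.96 CPM in WT. All 70kb libraries exceeded both WT libraries (log2 fold change 0.73, SE 0.21, unadjusted p = 0.0104). Ftx was called both with clone 1 alone (0.50, edgeR adjusted p = 0.00654) and with clone 2 alone (0.92, adjusted p = 0.0141). Set instead against the WT libraries that belong to the 40kb allele, and without the replicate block, Ftx had a log2 fold change of -0.074, whereas that of Xist was 2.94. Rlim, a ubiquitin ligase that activates Xist in female cells, had 235 and 196 CPM in clone 1 libraries, 278 and 242 CPM in clone 2 libraries, against 253 and 230 CPM in WT. It lay within the WT range on average (log2 fold change -0.03, SE 0.13, unadjusted p = 0.845), and it was called as lower with clone 1 alone (-0.18, edgeR adjusted p = 0.0458) while its value with clone 2 alone was 0.12 (adjusted p = 0.999).

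Of 22 tested X-linked genes that flank the centre, 8 had log2 fold changes above 0 and 14 below 0, all between -0.21 and 0.15, with a median of -0.03 and 0 at an unadjusted p under 0.05. Outside that list, Nexmif next to Rlim had a log2 fold change of -0.42 (unadjusted p = 0.165), and 4930519F16Rik next to Nap1l2 had -0.34 (unadjusted p = 0.231). Both had overlapping groups. Further out, 8030474K03Rik was at 0.55 (edgeR unadjusted p = 0.0523), with all 70kb libraries above both WT libraries. Nhsl2 was at -0.26 (unadjusted p = 0.259), with all 70kb libraries below both WT libraries. The X chromosome as a whole (620 tested genes) had a median log2 fold change of -0.01, against 0.01 for 14333 autosomal genes. By line it was -0.05 in clone 1 and 0.01 in clone 2. At an unadjusted p under 0.05 there were 12 X-linked genes (1.94%) and 157 autosomal genes (1.1%).

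**Figure D2:**
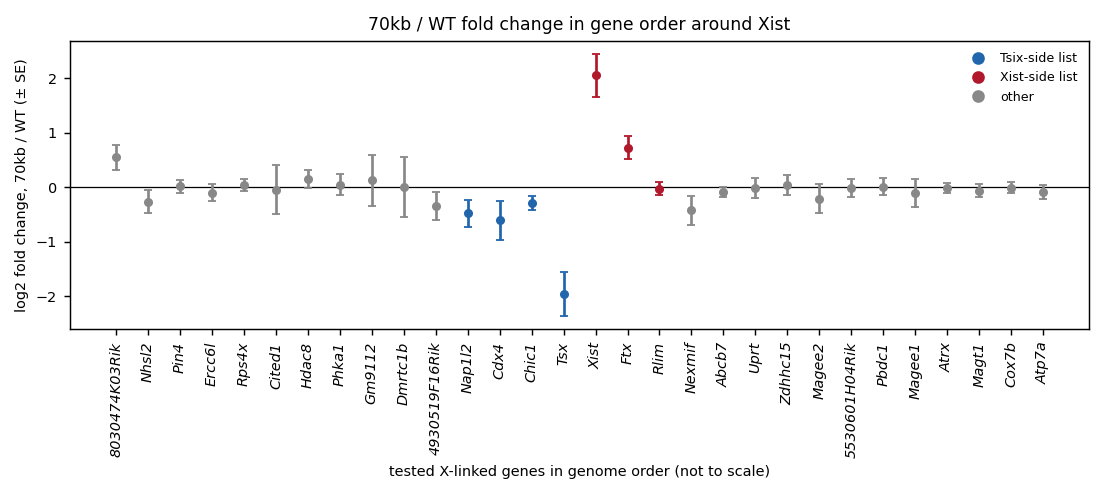
Log2 fold change, 70kb over WT, with its standard error as bars, for tested X-linked genes near Xist in genome order and not to scale. Tsix is absent because only genes annotated as protein-coding or lncRNA were ordered, and Tsix is annotated as antisense RNA. Tsx at -1.96 and Xist at 2.06 are adjacent, Nap1l2, Cdx4 and Chic1 lie below 0, and the genes outside both lists lie between -0.42 and 0.55.

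Known regulators of Xist lay close to 0. Of 23 tested genes of that list, which includes Rlim, 11 had log2 fold changes above 0 and 12 below 0, between -0.13 and 0.10, and 0 were at an unadjusted p under 0.05. Spen, which carries out silencing by Xist RNA, had 160 and 145 CPM in clone 1 libraries, 156 and 151 CPM in clone 2 libraries, against 162 and 166 CPM in WT. All 4 70kb libraries were below both WT libraries, by little (log2 fold change -0.10, unadjusted p = 0.290). Smchd1, which maintains silencing on the inactive X, and Celf1, an RNA-binding protein, were the other 2 genes of the list with non-overlapping groups, at -0.12 and -0.10. Over all tested genes, 2.97% had all 4 70kb libraries below both WT libraries. Yy1, which tethers Xist RNA to the X chromosome, had 107 to 118 CPM in 70kb libraries and 104 to 116 CPM in WT libraries, and the groups overlapped.

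Outside the X-inactivation centre, the genes with the smallest unadjusted p among those whose 70kb libraries all lay beyond both WT libraries are given as a description, since none passed the threshold in the fit of all 6 libraries (adjusted p = 1 for each, edgeR). Together with Xist and Ftx they make 16 genes. With clone 1 alone 15 of them, all but Nuggc, were called, against 8.64% of all tested genes. With clone 2 alone 3 (Xist, Ftx and Tgm1) were called, against 1.5%. These fits reuse libraries by which the 16 genes were chosen, so the counts are no separate support. On the higher side were Miip, Cdkn1c, Tgm1, Dgka, Nuggc and Bmp4, with log2 fold changes of 0.32 to 1.06. Cdkn1c (p57), an imprinted inhibitor of cyclin-dependent kinases, had 60.8 and 42.3 CPM in clone 1 libraries, 45.0 and 49.2 CPM in clone 2 libraries, against 36.0 and 30.3 CPM in WT (log2 fold change 0.58, SE 0.15, unadjusted p = 0.00677). All 4 70kb libraries were higher, clone 1 replicate 1 most. Bmp4, a signalling ligand that supports ES cell self-renewal, had 51.6 and 62.2 CPM in clone 1 libraries, 40.2 and 42.4 CPM in clone 2 libraries, against 28.0 and 34.3 CPM in WT (log2 fold change 0.66, SE 0.19, unadjusted p = 0.0106). It was higher in clone 1 than in clone 2 within both codes, and the clones were not called different (adjusted p = 0.0948). Tgm1, a transglutaminase that cross-links proteins in skin, had 42.8 and 36.5 CPM in clone 1 libraries, 48.6 and 61.4 CPM in clone 2 libraries, against 26.1 and 28.2 CPM in WT (log2 fold change 0.80, SE 0.21, unadjusted p = 0.00758). Clone 2 was the higher clone for this gene.

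Dgka, a diacylglycerol kinase, had 53.1 and 51.2 CPM in clone 1 libraries, 53.6 and 53.8 CPM in clone 2 libraries, against 43.1 and 41.9 CPM in WT. This was a small difference with little spread within either group (log2 fold change 0.32, SE 0.09, unadjusted p = 0.00877). Miip, an inhibitor of cell migration, was similar, with 33.3 and 28.8 CPM in clone 1 libraries, 30.1 and 31.8 CPM in clone 2 libraries, against 24.1 and 20.3 CPM in WT (log2 fold change 0.48, SE 0.12, unadjusted p = 0.00456). Nuggc, a GTPase of germinal centre B cells, had 1.102 and 1.01 CPM in clone 1 libraries, 1.37 and 0.961 CPM in clone 2 libraries, against 0.585 and 0.473 CPM in WT. Its log2 fold change was 1.06 (SE 0.29, unadjusted p = 0.00957).

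On the lower side were Smyd1, Syne2, Pfkp, Gbp4, Tro, Bcl11a, Fads2 and Auts2, with log2 fold changes of -1.08 to -0.41. Smyd1, a histone methyltransferase of heart and skeletal muscle, had 3.40 and 1.94 CPM in clone 1 libraries, 3.42 and 2.14 CPM in clone 2 libraries, against 5.85 and 5.28 CPM in WT (log2 fold change -1.08, SE 0.22, unadjusted p = 0.00200). Both clones had their higher value at B13, and all 4 libraries were below both WT libraries. Pfkp, the platelet form of phosphofructokinase and so an enzyme of glycolysis, had 199 and 209 CPM in clone 1 libraries, 187 and 189 CPM in clone 2 libraries, against 275 and 249 CPM in WT (log2 fold change -0.42, SE 0.10, unadjusted p = 0.00444). Its spread within the 70kb group was small. Syne2, which links the nucleus to the cytoskeleton, had 34.6 and 29.9 CPM in clone 1 libraries, 32.1 and 33.3 CPM in clone 2 libraries, against 43.2 and 46.9 CPM in WT (log2 fold change -0.47, SE 0.11, unadjusted p = 0.00322). The X-linked gene Tro, which encodes the adhesion protein trophinin, had 39.9 and 52.7 CPM in clone 1 libraries, 49.5 and 54.8 CPM in clone 2 libraries, against 59.6 and 71.6 CPM in WT (log2 fold change -0.41, SE 0.11, unadjusted p = 0.00790).

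The remaining 4 genes of the lower side were Gbp4, an interferon-induced GTPase (log2 fold change -0.86), Bcl11a, a transcriptional repressor (-0.71), Fads2, a fatty acid desaturase (-0.50), and Auts2, a gene of neural development (-0.45). Gbp4 had 3.25 to 5.48 CPM in 70kb libraries and 6.68 and 10.4 CPM in WT. Bcl11a had 4.54 to 8.63 CPM in 70kb libraries and 12.3 and 9.33 CPM in WT, so that its groups were close to each other. None of the 16 genes of both sides was called different between the clones, where 2.31% of all tested genes were. They were chosen to have the same sign in both clones, so this does not test whether the clones agree. With the WT libraries of the 40kb allele as controls and no replicate block the sign turned for Miip (-0.29), Dgka (-0.027), Ftx, Smyd1 (0.18) and Bcl11a (0.18).

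**Figure D3:**
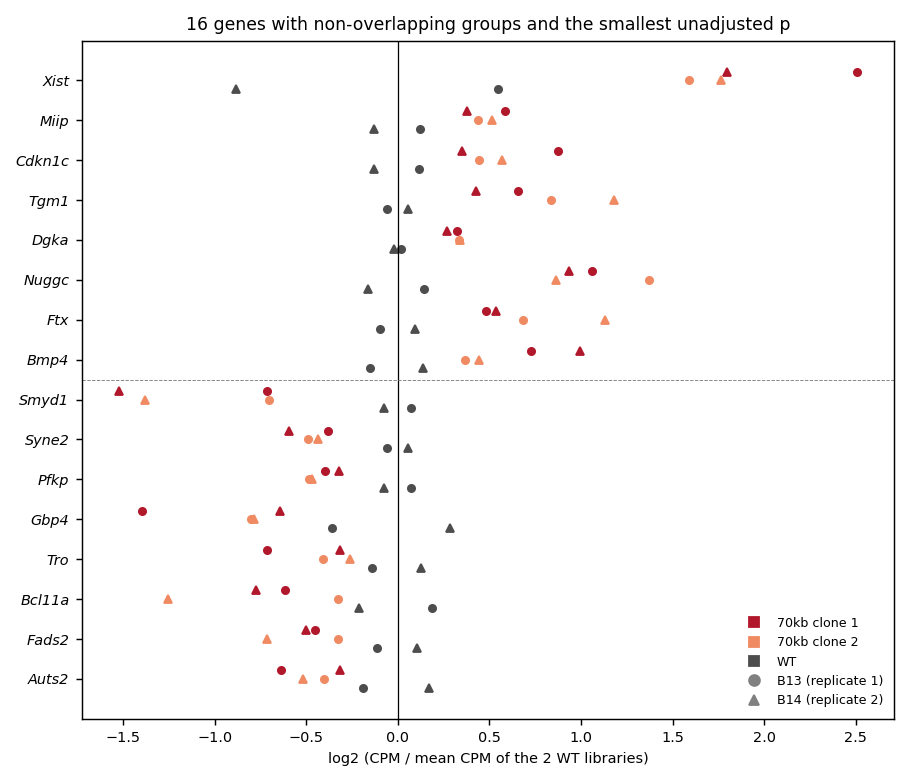
Log2 of the CPM of each library over the mean CPM of the 2 WT libraries for 16 genes whose 70kb libraries all lie beyond both WT libraries, in order of unadjusted p, with the 8 higher genes above the dashed line and the 8 lower ones below it. Colours give the line and symbols the code; Xist has the widest separation, and none of the 16 passed the threshold in the fit of all 6 libraries.

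The smallest p-value over all genes belonged to Gm9785, a pseudogene on the X chromosome that the rule on names leaves out and that was chosen after its values were seen. It had 2.65 and 1.77 CPM in clone 1 libraries, 1.92 and 2.11 CPM in clone 2 libraries, against 0.171 and 0.0788 CPM in WT (log2 fold change 4.06, SE 0.41, unadjusted p = 3.29e-05, edgeR adjusted p = 0.527). All 70kb libraries were far above both WT libraries, at counts that a near-identical copy could share. In a fit that used all 4 wild-type libraries of the series and had no replicate block it was called (log2 fold change 3.92, adjusted p = 0.0182). Gm12690, chosen in the same way, had 1.01 and 0.982 CPM in clone 1 libraries, 0.548 and 0.427 CPM in clone 2 libraries, against 4.80 and 3.60 CPM in WT. It was the lower of the genes called by DESeq2 (log2 fold change -2.49, adjusted p = 0.000995).

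Gene lists were set against the same background: 1.17% of all tested genes at an unadjusted p under 0.05 and a median log2 fold change of 0.01. The pluripotency lists lay close to it. Of 20 naive pluripotency genes 14 lay above 0 (median 0.07) and 0 were at an unadjusted p under 0.05, and of 6 core genes 1 lay above 0 (median -0.02). Dppa3, a maternal factor that guards methylation, had the highest value of the naive list, with 22.04 and 32.2 CPM in clone 1 libraries, 42.2 and 30.9 CPM in clone 2 libraries, against 13.4 and 26.0 CPM in WT (log2 fold change 0.74, unadjusted p = 0.0576). Its groups overlapped.

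Targets of p53, the transcription factor of the DNA damage response, lay mostly above 0: 21 of 22 tested genes, with a median of 0.25, 5 genes at an unadjusted p under 0.05 and 0 past the threshold. Bbc3, which encodes the death-promoting protein Puma, had 38.7 and 33.9 CPM in clone 1 libraries, 41.5 and 41.8 CPM in clone 2 libraries, against 32.2 and 27.5 CPM in WT (log2 fold change 0.39, unadjusted p = 0.0168). Phlda3, an inhibitor of Akt, had 34.5 and 37.4 CPM in clone 1 libraries, 34.6 and 52.2 CPM in clone 2 libraries, against 26.4 and 32.6 CPM in WT (log2 fold change 0.42, unadjusted p = 0.0270). In both genes, and in Ccng1 and Ddit4l, all 4 70kb libraries were above both WT libraries, as in 2.34% of all tested genes. Cdkn1a, the p53 target that arrests the cell cycle, overlapped between the groups, with 17.4 to 51.9 CPM in 70kb libraries and 21.6 to 27.0 CPM in WT libraries, and its highest value was that of clone 2 replicate 2. That library had the highest value of the 4 70kb libraries in the summed level of the list too, 2217 CPM, against 1736 to 1897 CPM in the other 3 and 1648 to 1679 CPM in WT.

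Of 24 tested imprinted genes 14 lay above 0 and 10 below 0, with 4 at an unadjusted p under 0.05 and 0 past the threshold. Peg10 and Sgce, which are neighbours expressed from the paternal copy, both lay above 0. Peg10 had 944 and 1148 CPM in clone 1 libraries, 705 and 1309 CPM in clone 2 libraries, against 395 and 849 CPM in WT (log2 fold change 0.79, SE 0.18, unadjusted p = 0.00413). Within each code both clones exceeded WT, while the groups overlapped across codes, since the B14 library was the higher in each line. Sgce had 7.83 and 9.11 CPM in clone 1 libraries, 6.16 and 12.7 CPM in clone 2 libraries, against 4.61 and 6.54 CPM in WT (log2 fold change 0.67, unadjusted p = 0.0185). H19, a noncoding RNA expressed from the maternal copy, had 0.268 and 0.546 CPM in clone 1 libraries, 0.821 and 1.55 CPM in clone 2 libraries, against 1.75 and 3.21 CPM in WT (log2 fold change -1.64, SE 0.51, unadjusted p = 0.0164). All 70kb libraries were below both WT libraries for H19.

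Outside the X-inactivation centre, 4 lists had every tested member on the same side of 0, with 0 members at an unadjusted p under 0.05 in any of them. All 21 genes of cholesterol synthesis lay below 0 (median -0.13, between -0.25 and -0.01), with a median of -0.05 in clone 1 and -0.195 in clone 2. Cyp51, the sterol demethylase, had the smallest p of them, with 96.9 and 69.4 CPM in clone 1 libraries, 87.8 and 64.3 CPM in clone 2 libraries, against 96.6 and 86.4 CPM in WT (log2 fold change -0.22, unadjusted p = 0.0843). All 8 writers and erasers of DNA methylation lay below 0 (median -0.12), and the smallest p among them was that of Tet2, which oxidises methylated cytosine, at -0.26 (unadjusted p = 0.0603). By line the median of these 8 genes was 0.02 in clone 1 and -0.22 in clone 2. Their summed level was 1893 CPM in clone 2 replicate 2, against 2610 to 2881 CPM in the other libraries. All 11 trophoblast genes (median 0.49, highest 0.73) and all 14 genes of the 2-cell-like state (median 0.48, highest 0.95) lay above 0. The smallest p of these 2 lists were those of Gata2, a GATA transcription factor, at a log2 fold change of 0.56 (unadjusted p = 0.120) and of Usp17lc, a deubiquitinase gene, at 0.65 (unadjusted p = 0.149). Members of a list can vary together within a library, so such a count does not hold as many independent measurements as genes.

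In the trophoblast list the clones took opposite sides of WT, with a median log2 fold change of -0.42 in clone 1 and 1.02 in clone 2. The summed trophoblast level was 150 and 262 CPM in clone 1 libraries, 368 and 811 CPM in clone 2 libraries, against 164 and 498 CPM in WT. Clone 1 was below and clone 2 above WT within each code. For the 2-cell-like genes the median was -0.35 in clone 1 and 1.08 in clone 2. Usp17lc, a deubiquitinase gene, had 1.91 and 1.94 CPM in clone 1 libraries, 3.75 and 3.66 CPM in clone 2 libraries, against 2.00 and 1.60 CPM in WT. Only the clone 2 libraries stood above both WT libraries for this gene. Gata2, a transcription factor of trophoblast and blood, showed 1.97 and 1.61 CPM in clone 1 libraries, 3.34 and 2.16 CPM in clone 2 libraries, against 1.73 and 1.34 CPM in WT, with overlap.

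The remaining lists had few genes at an unadjusted p under 0.05. Primitive endoderm had 2 of 16, Cubn, an endocytic receptor (log2 fold change -1.22, unadjusted p = 0.0128), and Srgn, a proteoglycan (-1.61, unadjusted p = 0.0361). Mesoderm and primitive streak had 1 of 13, the ligand gene Wnt3a (1.38, unadjusted p = 0.0262), at 0.536 to 0.684 CPM in 70kb libraries and 0.105 to 0.366 CPM in WT libraries. Glycolysis and hypoxia had 1 of 22, Pfkp, with 19 of 22 below 0 and a median of -0.08. Lists of formative and primed pluripotency, neural, fibroblast and smooth muscle, germline, FGF-ERK feedback, LIF-STAT3, Wnt, Nodal and BMP, Y-linked, stress, histone and housekeeping genes had 0.

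**Figure D4:**
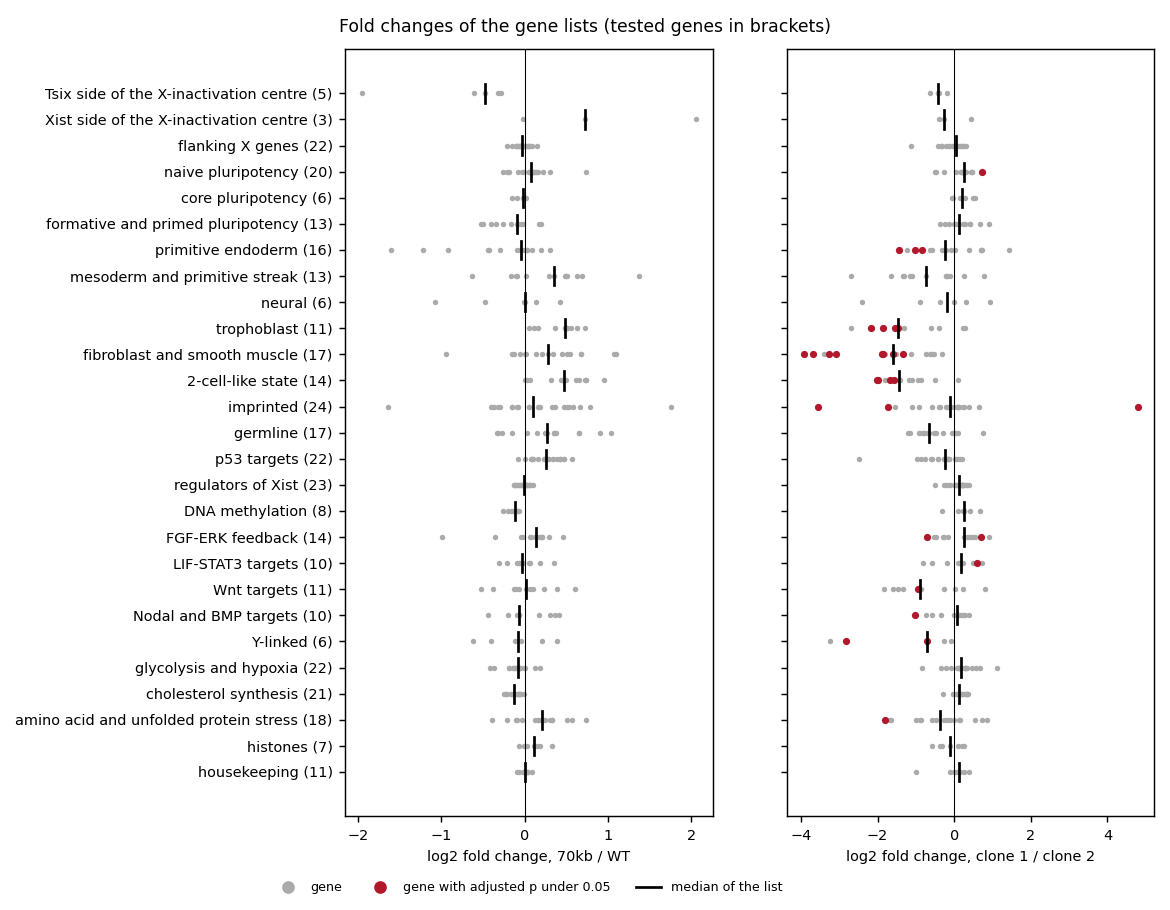
Log2 fold changes of the tested genes of 27 lists, 70kb over WT on the left and clone 1 over clone 2 on the right, with 1 point per gene, the list's median as a bar, and red for an adjusted p under 0.05. No gene is red on the left, and the red genes on the right lie mainly below 0 in the fibroblast, trophoblast, 2-cell-like and primitive endoderm lists.

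In the fit with a mean per line and the code as a block, 371 of 16047 genes (2.31%) had an adjusted p under 0.05 between clone 1 and clone 2 (edgeR), of which 55 (0.343%) were higher in clone 1 and 316 (1.97%) lower. In the same fit 0 genes passed the threshold for clone 1 against WT (946 at an unadjusted p under 0.05, 5.90%) and 0 for clone 2 against WT (1454, 9.06%). Fitted with WT alone, without the libraries of the other clone, clone 1 had 1350 called genes and clone 2 had 239. The count between the clones was 0 without the replicate block (1507 genes at an unadjusted p under 0.05). It was 801 without clone 1 replicate 1, 248 without clone 1 replicate 2, 6663 without clone 2 replicate 1 and 2485 without clone 2 replicate 2, where 1 clone is left with a single library that is assumed to vary like the others.

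WT lay between the clones, within both codes, in 338 of the 371 genes (91.1%), against 3575 of all tested genes (22.3%). A wide gap between the clones leaves more room for WT to fall inside it. Of the 316 genes that were lower in clone 1, 296 (93.7%) were higher at B14 than at B13 by the fitted difference, against 49.9% of all genes. In 283 of them the B14 library was the higher in all 3 lines, for which the share over all genes was not computed. No gene was called for B14 against B13 in edgeR (0 of 16047, 0%, with 2375 at an unadjusted p under 0.05, 14.8%), whereas DESeq2 called 487 genes, 292 of them higher at B14. Without clone 2 replicate 2 edgeR called 485. In bulk RNA, fewer cells of a type and less RNA per cell cannot be told apart.

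Genes of the fibroblast and smooth muscle list were lower in clone 1 than in clone 2: 17 of 17 lay below 0, with a median of -1.60 against 0.01 over all genes. The threshold was passed by 8 of the 17, against 2.31% of all tested genes. Col1a1, a chain of fibrillar collagen, had 0.864 and 1.58 CPM in clone 1 libraries, 8.60 and 31.8 CPM in clone 2 libraries, and 1.44 and 11.1 CPM in WT. The log2 difference between the clones was -3.92 (SE 0.44, adjusted p = 0.0182), and in each line the B14 library was the higher. Acta2, smooth muscle actin, had 6.34 and 13.2 CPM in clone 1 libraries, 40.6 and 144 CPM in clone 2 libraries, and 13.4 and 63.9 CPM in WT (log2 difference -3.07, SE 0.27, adjusted p = 0.0129). WT was between the clones within each code. Summed over the list, the B13 libraries had 1367 CPM in clone 1, 1534 CPM in clone 2 and 1567 CPM in WT. The B14 libraries had 1126 CPM in clone 1, 2343 CPM in clone 2 and 1729 CPM in WT. By this sum WT lay between the clones at B14 but not at B13, and clone 1 was lower at B14. Postn, a matrix protein, was at 0 in clone 1 replicate 1 and WT replicate 1. The filter on low counts leaves out genes at 0 in every library.

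Simple-epithelium keratins followed the same order. Krt18 had 30.0 and 69.6 CPM in clone 1 libraries, 125 and 342 CPM in clone 2 libraries, and 42.5 and 155 CPM in WT (log2 difference -2.18, SE 0.17, adjusted p = 0.0129). Krt8, its partner in the filament, and Krt19 and Krt7 were also called, with log2 differences of -1.86, -1.55 and -1.48. These 4 were the called genes among the 11 tested trophoblast genes, 9 of which lay below 0 (median -1.48). The called share over all tested genes was 2.31%. Cdx2, the defining transcription factor of trophoblast, had 0.209 and 0.627 CPM in clone 1 libraries, 0.904 and 1.01 CPM in clone 2 libraries, and 0.244 and 0.814 CPM in WT, and was not called (adjusted p = 0.240).

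In the primitive endoderm list 3 of 16 tested genes were called between the clones, against 2.31% of all tested genes. These were the basement membrane genes Col4a1, Col4a2 and Sparc, lower in clone 1 than in clone 2 (log2 differences -1.03, -1.43 and -0.85, edgeR adjusted p = 0.0277, 0.0138 and 0.0217). The transcription factors Gata6 and Gata4 that define that lineage were not called, at 0.536 to 0.546 CPM and 1.85 to 2.16 CPM in clone 1 and 0.548 to 0.694 CPM and 1.01 to 1.53 CPM in clone 2. The part of such cells in the differences between the clones was not tested.

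Genes of the 2-cell-like state were lower in clone 1 than in clone 2 in 13 of 14 cases (median -1.43). Zscan4c, Zscan4d, Zscan4f and Usp17lb passed the threshold, which 2.31% of all tested genes did. Zscan4c, which marks rare ES cells that resemble the cleavage-stage embryo, had 8.55 and 6.44 CPM in clone 1 libraries, 25.03 and 22.2 CPM in clone 2 libraries, and 12.4 and 6.80 CPM in WT (log2 difference -1.67, SE 0.19, adjusted p = 0.0195). Clone 2 was above the other lines in both codes, and here the B13 library was the higher in every line. Members of the Zscan4 and Usp17l families are near-identical copies, so their counts may be split among them. In the stress list 1 of 18 tested genes was called, against 2.31% of all tested genes. It was Atf3, a stress transcription factor, at 2.35 and 2.54 CPM in clone 1 libraries, 7.28 and 10.1 CPM in clone 2 libraries, and 3.61 and 5.39 CPM in WT.

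Of 24 tested imprinted genes 3 were called between the clones, 1 higher and 2 lower in clone 1, against 2.31% of all tested genes. Nnat, an imprinted proteolipid gene of the nervous system, had 9.35 and 12.03 CPM in clone 1 libraries, 0.219 and 0.587 CPM in clone 2 libraries, and 1.12 and 2.29 CPM in WT (log2 difference 4.79, SE 0.32, adjusted p = 0.0129). The clone 1 libraries stood apart from the other 4. Grb10, an imprinted adaptor that restrains insulin signalling, had 37.2 and 20.9 CPM in clone 1 libraries, 267 and 400 CPM in clone 2 libraries, and 224 and 222 CPM in WT (log2 difference -3.54, SE 0.33, adjusted p = 0.0138). Again the clone 1 libraries stood apart, with the other 4 between 222 and 400 CPM. Igf2, the imprinted growth factor, had 9.56 and 22.2 CPM in clone 1 libraries, 33.6 and 66.8 CPM in clone 2 libraries, and 10.8 and 43.9 CPM in WT (log2 difference -1.72, SE 0.24, adjusted p = 0.0263). For Igf2 the B14 library was the higher in each line.

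Some genes were higher in clone 1. The largest such differences after Nnat, leaving out predicted genes and means under 20 counts, were Nkx6-3, a homeobox factor (2.67), Atp1a4, a sodium pump subunit of sperm (2.55), Fam196b (1.47) and Gna14, a G protein subunit (1.41). Spry2, a feedback inhibitor of FGF signalling, had 172 and 180 CPM in clone 1 libraries, 108 and 108 CPM in clone 2 libraries, and 103 and 104 CPM in WT (log2 difference 0.70, SE 0.10, adjusted p = 0.0254). The clone 1 libraries were the high ones and clone 2 was at the WT level. Socs3, a feedback inhibitor of the LIF pathway (0.58, adjusted p = 0.0444), and Nr0b1, an X-linked repressor of naive ES cells (0.74, adjusted p = 0.0263), were also higher in clone 1, while Dusp4, a phosphatase of ERK, was lower (-0.71, adjusted p = 0.0254).

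By the same rule the largest differences in the other direction, lower in clone 1 than in clone 2, were those of Col8a1, Robo2, Maf, Pcdh7 and Igfbp5 (log2 differences of -5.55 to -4.03). Robo2, an axon guidance receptor, had 0.0596 and 0.218 CPM in clone 1 libraries, 1.53 and 10.0 CPM in clone 2 libraries, and 0.414 and 1.42 CPM in WT. Igfbp5, which binds insulin-like growth factors, had 0.566 and 0.846 CPM in clone 1 libraries, 4.08 and 24.2 CPM in clone 2 libraries, and 1.096 and 6.94 CPM in WT. In both genes clone 2 replicate 2 was far above the other 5 libraries, and the B14 library was the higher in each line.

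Of 6 tested Y-linked genes 2 were called between the clones, both lower in clone 1, against 2.31% of all tested genes. The line is labelled XY. Zfy1, a zinc finger gene of the Y chromosome, had 1.19 and 0.764 CPM in clone 1 libraries, 5.37 and 7.95 CPM in clone 2 libraries, and 8.11 and 3.86 CPM in WT (log2 difference -2.82, SE 0.43, adjusted p = 0.0325). Ddx3y, an RNA helicase, had 49.95 and 38.8 CPM in clone 1 libraries, 77.8 and 65.4 CPM in clone 2 libraries, and 83.3 and 70.0 CPM in WT (log2 difference -0.70, SE 0.10, adjusted p = 0.0263). The clone 1 libraries were the lowest for both genes. Eif2s3y, a translation factor gene, had 133 to 141 CPM in clone 1, 142 to 149 CPM in clone 2 and 145 CPM in both WT libraries.

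**Figure D5:**
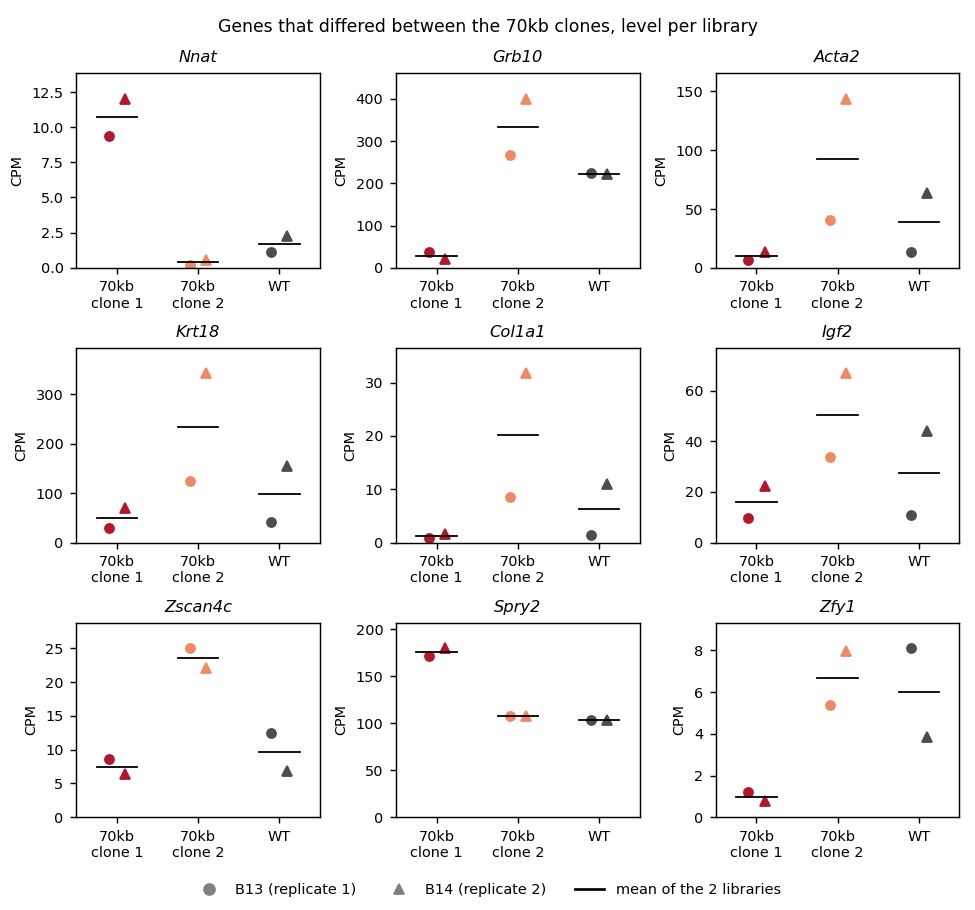
CPM of 9 genes called different between the 2 clones, by line, with circles for B13, triangles for B14 and a bar at the mean of the 2 libraries. Clone 1 stands apart for Nnat, Grb10, Spry2 and Zfy1, while for Acta2, Krt18, Col1a1 and Igf2 WT lies between the clones within each code and B14 is the higher in each line.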

How the data were processed

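RNA was measured in 4 libraries of the 70kb allele and 2 of WT, grouped by their titles. Per the labels' protocols, polyadenylated RNA was made into libraries by a stranded kit. The authors deposited a table of raw counts for each gene. Per the submitters' processing notes the tools were STAR and edgeR and the build was mm9, while the annotation release and the strand rule of the counting are unknown. Symbols were found for 32620 of 37310 genes and chromosomes for 27634, in tables of GRCm38.p6 that also gave the gene order and RefSeq's promoter sequences.

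The test was that of edgeR 4.0.16, run in R 4.3.3 (TMM, default filter on low counts, quasi-likelihood F test, Benjamini-Hochberg adjustment over 16047 genes, threshold 0.05), after a check on simulated counts. The fit of the allele had the B code as replicate block and 3 residual degrees of freedom, with a coefficient of biological variation of 20%. The clones were compared in a fit with a mean per line (2 degrees of freedom, 13.4%). The SE is the absolute log2 fold change over the square root of F. No library pair held the same counts in more than 258 tested genes. Counting error limits genes with few counts.

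The definition of the comparison pairs libraries of the same code, and same-coded libraries deviated together: the B14 minus B13 log2 differences correlated at 0.80 (clone 1 and WT), 0.31 (clone 2 and WT) and 0.25 (the 2 clones) over 16047 genes, which are not independent.

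Named are the tested genes of the X-inactivation centre lists, of which 1 is not reported here and is left out of the list counts and figures. Also named are the 8 rises and 8 falls with a mean of at least 20 counts and all 70kb libraries beyond both WT libraries (largest change if past the threshold, otherwise smallest p; no predicted genes or pseudogenes). From other lists, up to 3 called genes are named, or the member with the smallest p where all members share a sign. Between the clones, the 5 largest called rises and falls are named. Other genes named were chosen after their values were seen, as examples of their list. The members, lists and tests were chosen with earlier results of these data known. Alternatives were DESeq2 1.42.0, other scalings and filters, no block, other wild-type sets, single clones and left-out libraries; the mean of the clones in the fit per line and the left-out libraries of the clone comparison were added after seeing the data.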

Additional observations from a re-analysis of the deposited data

Results flagged for a closer look

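In the 4 70kb libraries, Robo2 at 10.0 CPM and Igfbp5 at 24.2 CPM in clone 2 replicate 2 lay far from the other 3, with a gap of 0.852 and 0.851 of the group's range. For 4 independent values from a normal distribution, chance sets about 1 in 20 groups apart in this way. These 4 libraries come from 2 clones, and both genes were named for their difference between the clones, so that rate does not hold here.

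Clone 1 and clone 2, which are labelled with the same allele, differed in 371 of 16047 tested genes (2.31%, edgeR, adjusted p under 0.05). Both are set against the same WT, so this is also the difference between their log2 fold changes against WT. It cannot tell an effect of the allele from other differences between the clones. As clone 1 minus clone 2 on the log2 scale, the difference was 4.79 for Nnat, 2.67 for Nkx6-3, 2.55 for Atp1a4, 1.47 for Fam196b and 1.41 for Gna14. It was -5.55 for Col8a1, -5.23 for Robo2, -4.16 for Maf, -4.09 for Pcdh7 and -4.03 for Igfbp5.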

How the results depend on the processing

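The count of genes called between the 70kb allele and WT was 0 without the replicate block (109 at an unadjusted p under 0.05) and 0 to 0 with each library left out, but 4 by DESeq2, 1 with all 4 wild-type libraries and no block, 1350 with clone 1 alone (398 higher, 952 lower) and 239 with clone 2 alone (194 higher, 45 lower). The fits of 1 clone have 1 residual degree of freedom. Xist passed the threshold by DESeq2 (2.06), with clone 1 alone (2.22) and with clone 2 alone (1.81), and its log2 fold change was 1.57 to 2.66 with each library left out and 1.96 without the block. Tsix passed it with clone 1 alone (-0.55), and was -0.48 to -0.16 with each library left out and -0.35 without the block. Of 26 genes named for the allele, 20 passed the threshold with clone 1 alone and 3 with clone 2 alone, against 8.64% and 1.5% of all tested genes. Many of the 26 were chosen by their values in the same libraries, so these counts are no separate support.

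Of these 26 genes, 19 kept the sign of their log2 fold change under every alternative run. With the WT libraries of the 40kb allele as controls and no block the sign turned for Ftx (-0.074), Miip (-0.29), Dgka (-0.027), Smyd1 (0.18), Bcl11a (0.18) and Gata2 (-0.037). It turned for Rlim with clone 2 alone (0.12) and with single libraries left out (-0.088 to 0.053), namely clone 1 replicate 1 (0.026), clone 1 replicate 2 (0.053) and WT replicate 2 (0.015). The cause was not tested.

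The count of genes called between the clones was 0 without the replicate block, 733 by DESeq2 (367 shared with the 371), 870 without a filter on low counts, and 248 to 6663 with each 70kb library left out. No gene named for the clones turned sign in any of the alternatives run. The count for B14 against B13 was 487 by DESeq2 and 0 to 485 with each library left out. The fit of all 6 libraries had 3 residual degrees of freedom and 1 unedited line, and in it Ftx and Chic1 did not pass the threshold, whereas fits of single clones called Ftx (both clones) and Chic1 (clone 1).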
